A study of Mus musculus with 42 samples.

Results

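The genes described here are 48 factors of the cytosolic translation machinery in mouse leukaemia cells. They comprise 33 initiation factors, 5 elongation factors, the eEF2 kinase, eIF5A, eIF6, 5 release and recycling factors, the poly(A)-binding protein Pabpc1 and the growth-related protein Tpt1. Members were listed by gene symbol, with earlier results of these data known but with no measured value in the rule, from 55487 gene identifiers, and all 48 were counted in both the mRNA and the ribosome footprint table. Footprints are the mRNA fragments that a translating ribosome shields from nuclease. Both readouts came from the same lysate of each of 21 mice, the mRNA by Smart-seq2, a full-length cDNA method for small inputs.

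All 4 groups carried the same acute myeloid leukaemia. MLL-AF9 cells, labelled WT in genotype and taken from a terminally ill mouse, were expanded in culture. They expressed GFP under ubiquitin control and luciferase from the beta-actin promoter. Unconditioned male recipients aged 8 to 10 weeks received them by vein, so host blood cells were still present, and GFP+ viable cells were sorted from bone marrow when the response to chemotherapy was at its peak. Vehicle (PBS) was given to 5 mice on a diet with standard amino acids (AA), and 5+3 to 4 mice on that diet. A diet without leucine, isoleucine and valine, the branched-chain amino acids (BCAA-free), was fed to 5 mice given vehicle and 7 mice given 5+3. The 5+3 regimen is cytarabine at 100 mg/kg daily for 5 days with doxorubicin at 3 mg/kg on the first 3 of them.

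Translation starts when eIF2 delivers the initiator tRNA to the small ribosomal subunit, while eIF4F recruits the capped mRNA and eIF3 joins them. The exchange factor eIF2B recharges eIF2 with GTP, and kinases that phosphorylate eIF2, such as the amino acid sensor Gcn2 (Eif2ak4), block that step. In elongation, eEF1A brings aminoacyl-tRNA, the eEF1B subunits recharge eEF1A, and eEF2 moves the ribosome along. mRNAs of the elongation factors, of Pabpc1, Tpt1 and of some eIF3 and eIF4 subunits are known to begin with a 5′ terminal oligopyrimidine (TOP) tract, through which mTORC1 controls how many ribosomes they carry.

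Total counts ran from 30996200 to 70437713 per mRNA library and from 2697092 to 8863472 per footprint library. Every member passed the filter on low counts in every readout, with mean footprint counts per library lowest for Eif2b4. Along the first principal component of the mRNA libraries, 22.7% of the variance, 4 mice stood apart at 53.3 to 256, against -67.6 to 18.4 for the other 17. These 4 also had the fewest genes with at least 10 mRNA counts, 14034 to 17108 against 17257 to 21297. Whether that bears on the calls was not tested. All 4 ate the BCAA-free diet (vehicle replicates 1, 2 and 5, 5+3 replicate 7), so counts of members called in comparisons with that diet are also given without these mice. Leukaemia markers, Kit, Mpo, Hoxa9, Ptprc and Itgam among them, made up 0.573% to 2.48% of mRNA counts. None was at 0 in every mouse of a group. From vehicle to 5+3 on the BCAA-free diet, erythroid markers fell from a mean of 0.00954% to 0.000477% of mRNA counts, and mature neutrophil markers from 0.403% to 0.0895%. With all mice, 6 of 8 and 9 of 9 tested genes passed the test, beside 8.56% of all genes in mRNA. Leukaemia markers went from 0.897% to 1.64% of mRNA counts and from 0.761% to 0.675% of footprint counts, with overlapping groups in both. The part of any of these markers in the results was not tested. In such bulk samples, fewer cells of a type and less RNA per cell cannot be told apart.

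Because several members are known TOP mRNAs, their annotated starts were inspected. Each line gives 30 bases, 10 before and 20 from the annotated start, 5′ to 3′ on the gene's strand (RefSeq, GRCm38.p6). Capitals mark the longest run that opens with C and holds only C and T. The first 6 genes are known TOP mRNAs whose footprints per mRNA are described below, and Eif2s3x, not on that list, had the smallest adjusted p in footprints.
Eef1a1 (chr9:78481705-78481734, minus strand): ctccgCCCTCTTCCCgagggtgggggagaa
Eif3f (chr7:108934405-108934434, plus strand): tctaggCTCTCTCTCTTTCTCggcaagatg
Eif4b (chr15:102073763-102073792, plus strand): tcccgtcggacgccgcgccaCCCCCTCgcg
Eef2 (chr10:81176621-81176650, plus strand): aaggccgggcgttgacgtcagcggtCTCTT
Eef1b2 (chr1:63176821-63176850, plus strand): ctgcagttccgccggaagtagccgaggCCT
Tpt1 (chr14:75845246-75845275, plus strand): cgCTgacgacagttccgggggagccgcgga
Eif2s3x (chrX:94212632-94212661, minus strand): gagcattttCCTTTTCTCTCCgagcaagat
The runs were 15 bases in Eif3f, 12 in Eif2s3x, 10 in Eef1a1 and 7 in Eif4b. Those of Eef2 (5) and Eef1b2 (3) reached the end of the window, and Tpt1 had only 2 bases. A run of at least 7 was present in 10 of the 38 members with an entry (26.3%), in 3 of 6 known TOP members (50%) and in 2799 of 17492 protein-coding genes (16%). An annotated start need not be the base at which the mRNA begins, so these letters are a description only.

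With 5+3 on the BCAA-free diet, the mRNA rose for 8 of 33 initiation factors and fell for 1, while it fell for 1 of 5 elongation factors and for Tpt1. By edgeR's quasi-likelihood test, with Benjamini-Hochberg adjusted p under 0.05 over all 21114 genes, 13 of 48 members passed, 10 higher and 3 lower. Of all genes 8.56% passed, 4.33% higher and 4.23% lower. Without the 4 mice that stood apart, only replicates 3 and 4 remained in the vehicle group. No member then passed, and 0.0779% of all genes did. Eif3b stood at 1.37 on the log2 scale (adjusted p = 0.257), against 1.39 in all mice.

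Eif5, which triggers GTP hydrolysis by eIF2 at the start codon, had the smallest adjusted p among mRNAs. In the 5 vehicle mice its level was 179.6, 177, 372, 313 and 171 CPM, the count scaled to a fixed library total. Under 5+3 it ran from 254 through a median of 539.7 to 809. All but the lowest treated mouse lay above every vehicle mouse, and the log2 change was 1.18 ± 0.27 (SE, adjusted p = 0.015). Eif5b, the GTPase that joins the ribosomal subunits, went the other way, from 310.4 ± 58.0 to 171 ± 55.8 CPM (SD), a log2 change of -0.86 ± 0.24 (adjusted p = 0.034). Of eIF2 itself, the alpha subunit Eif2s1, the target of the eIF2 kinases, rose from 96.0 ± 38.7 to 249 ± 101 CPM (log2 change 1.37 ± 0.37, adjusted p = 0.029). Of its exchange factor eIF2B, 3 of 5 subunits rose, Eif2b1, Eif2b2 and Eif2b3, with log2 changes of 1.11, 1.08 and 1.01. The catalytic subunit Eif2b5 changed by 0.53 ± 0.31, which did not pass (adjusted p = 0.28).

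In eIF3, the scaffold of the initiation complex, Eif3b was the only 1 of 13 subunits past the test. Its mRNA was 179, 222, 213, 305 and 212 CPM with vehicle and 254 to 989 with 5+3, with a median of 585, and the treated group was both higher and far wider. The log2 change was 1.39 ± 0.35 (adjusted p = 0.022), whereas the core subunit Eif3a stood at -0.16 ± 0.18 and Eif3e at 0.18 ± 0.15. In the cap-binding complex, Eif4e, which holds the cap, rose by 1.15 ± 0.29 (adjusted p = 0.023) and the helicase Eif4a1 by 1.12 ± 0.30 (adjusted p = 0.028). Its scaffold Eif4g1 was at 0.22 ± 0.17 and the helicase cofactor Eif4b at -0.45 ± 0.20, neither past the test. Eif5a, which helps ribosomes through difficult peptide bonds, rose by 0.78 ± 0.24 (adjusted p = 0.045), and Gspt1, the GTPase of termination, by 1.02 ± 0.26 (adjusted p = 0.022). Its partner Etf1, which reads stop codons, was at 0.51 ± 0.18 (adjusted p = 0.075), and Abce1, which splits the ribosome afterwards, at 0.42 ± 0.25.

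All 5 elongation factor mRNAs had negative changes, with a median of -0.40, against 0.21 for the 33 initiation factors and -0.01 for all genes tested. Only Eef1b2, the exchange factor for eEF1A, passed. Its mRNA was 814, 1154, 733, 462 and 713 CPM with vehicle. With 5+3 it ran from 191 through a median of 264 to 552, with replicates 3, 6 and 7 at 537, 474 and 552 and no other mouse above 264. The log2 change was -1.15 ± 0.34 (adjusted p = 0.039). Tpt1 followed the same course, at 1032, 1204, 757, 471 and 690.4 CPM with vehicle and 215 to 762 with 5+3, with a median of 301 (log2 change -1.08 ± 0.34, adjusted p = 0.049). Eef1a1 changed by -0.42 ± 0.24, Eef2 by -0.40 ± 0.20, Pabpc1 by -0.14 ± 0.17 and Eef2k by -0.01 ± 0.18, none past the test. The count of 13 fell to 1 without vehicle replicate 2, to 5 without vehicle replicate 3 and to 6 without vehicle replicate 5. Leaving out 5+3 replicates 1, 2 or 5 gave 6, 5 and 2.

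Footprints moved by smaller amounts but more evenly, and mostly upward. On the BCAA-free diet 24 of 48 members passed between 5+3 and vehicle, 22 higher and 2 lower. Of all 15723 genes 20.6% passed, 8.76% higher and 11.9% lower. The median log2 change of the members was 0.22, against -0.02 over all genes tested. Without the 4 mice 2.39% of all genes passed, and among members only Abce1 (log2 change 0.47, adjusted p = 0.047). Eif2s3x then stood at 0.37 (adjusted p = 0.062) and Eif2b3 at 0.49 (adjusted p = 0.077).

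All 3 subunits of eIF2 gained footprints. Eif2s3x, the subunit that binds GTP and the initiator tRNA, had 129, 136, 139, 146 and 134 CPM with vehicle, and 165 to 196 with a median of 176 under 5+3. The groups did not overlap, and the log2 change was 0.39 ± 0.07 (adjusted p = 0.00064). Eif2s2 rose by 0.45 ± 0.12 (adjusted p = 0.0077) and Eif2s1 by 0.31 ± 0.10 (adjusted p = 0.033), again with no overlap. In eIF2B, Eif2b3 went from 24.6 ± 2.95 to 35.9 ± 4.51 CPM (log2 change 0.55 ± 0.11, adjusted p = 0.00097). Its vehicle values were 25.6, 20.2, 24.2, 28.4 and 24.9 CPM, and the lowest treated mouse, at 27.6, lay within them. Eif2b1 and Eif2b5 also passed, at 0.37 ± 0.13 and 0.25 ± 0.09. Eif2b4 was at -0.32 ± 0.13 without passing (adjusted p = 0.081). Eif2s3x, Eif1, Eif5a and Tpt1 have pseudogenes and Eif3j1 a paralog, Eif3j2, counted under their own names, so reads of these members may be split. Adding the counts of the named copies changed no count of calls.

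Among eIF3 subunits 6 of 13 passed, all higher, and all 13 changes were positive, from 0.04 to 0.30. Eif3m rose by 0.27 ± 0.07 (adjusted p = 0.011), without overlap between the groups, and Eif3e by 0.30 ± 0.08 (adjusted p = 0.012). Eif3b, whose mRNA change was the largest of all members, rose by only 0.26 ± 0.07 in footprints, from 228 ± 18.0 to 273 ± 18.8 CPM, and Eif3a was at 0.19 ± 0.09 without passing. Eif4e rose by 0.38 ± 0.11 (adjusted p = 0.020), Eif4g1 by 0.27 ± 0.09 (adjusted p = 0.038) and Eif4h by 0.26 ± 0.07, while Eif4a1 (0.16 ± 0.09) and Eif4b (0.21 ± 0.10) did not pass.

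Eif4a2, a close relative of the helicase Eif4a1, had the largest footprint change of any member, and it was downward. It had 715, 401, 601, 524 and 904.5 CPM with vehicle and 182 to 517 with a median of 268 under 5+3, a log2 change of -0.99 ± 0.25 (adjusted p = 0.011). Its mRNA was at -0.14 ± 0.16. The small nucleolar RNA Snora81 lies inside this gene (chr16:23110770-23110933, GRCm38.p6) and was counted under its own name, with a mean of 2007 footprint counts per library against 2365 for Eif4a2. Snora81 fell from 557 ± 176 to 261 ± 119 CPM in the same comparison (log2 change -1.09 ± 0.29, adjusted p = 0.014). It was looked up after the Eif4a2 values were seen, and whether its fragments enter the Eif4a2 count was not tested.

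Of the 5 elongation factors 3 gained footprints, with Eef1g at 0.39 ± 0.12 (adjusted p = 0.020), Eef2 at 0.37 ± 0.12 (adjusted p = 0.028) and Eef1d at 0.26 ± 0.09 (adjusted p = 0.044). Eef2 had 717, 1169, 1016, 782 and 923 CPM with vehicle and 980.1 to 1499 with a median of 1113 under 5+3, so the groups overlapped. Eef1b2, with a log2 change of 0.35 ± 0.15 (adjusted p = 0.093), and Eef1a1, with 0.22 ± 0.13, did not pass. Eef2k, the kinase that inactivates eEF2, had fewer footprints, 41.6 ± 5.72 against 52.7 ± 12.4 CPM (log2 change -0.33 ± 0.12, adjusted p = 0.041). Abce1 rose by 0.41 ± 0.08 (adjusted p = 0.0014), from 127, 119, 124, 111 and 119 CPM to between 142 and 190.4 with a median of 150.0, with no overlap. Etf1 rose by 0.27 ± 0.08 (adjusted p = 0.016), while Gspt1 (0.20 ± 0.08), Eif5a (0.12 ± 0.07), Tpt1 (0.15 ± 0.11) and Pabpc1 (-0.10 ± 0.17) did not pass.

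**Figure D1:**
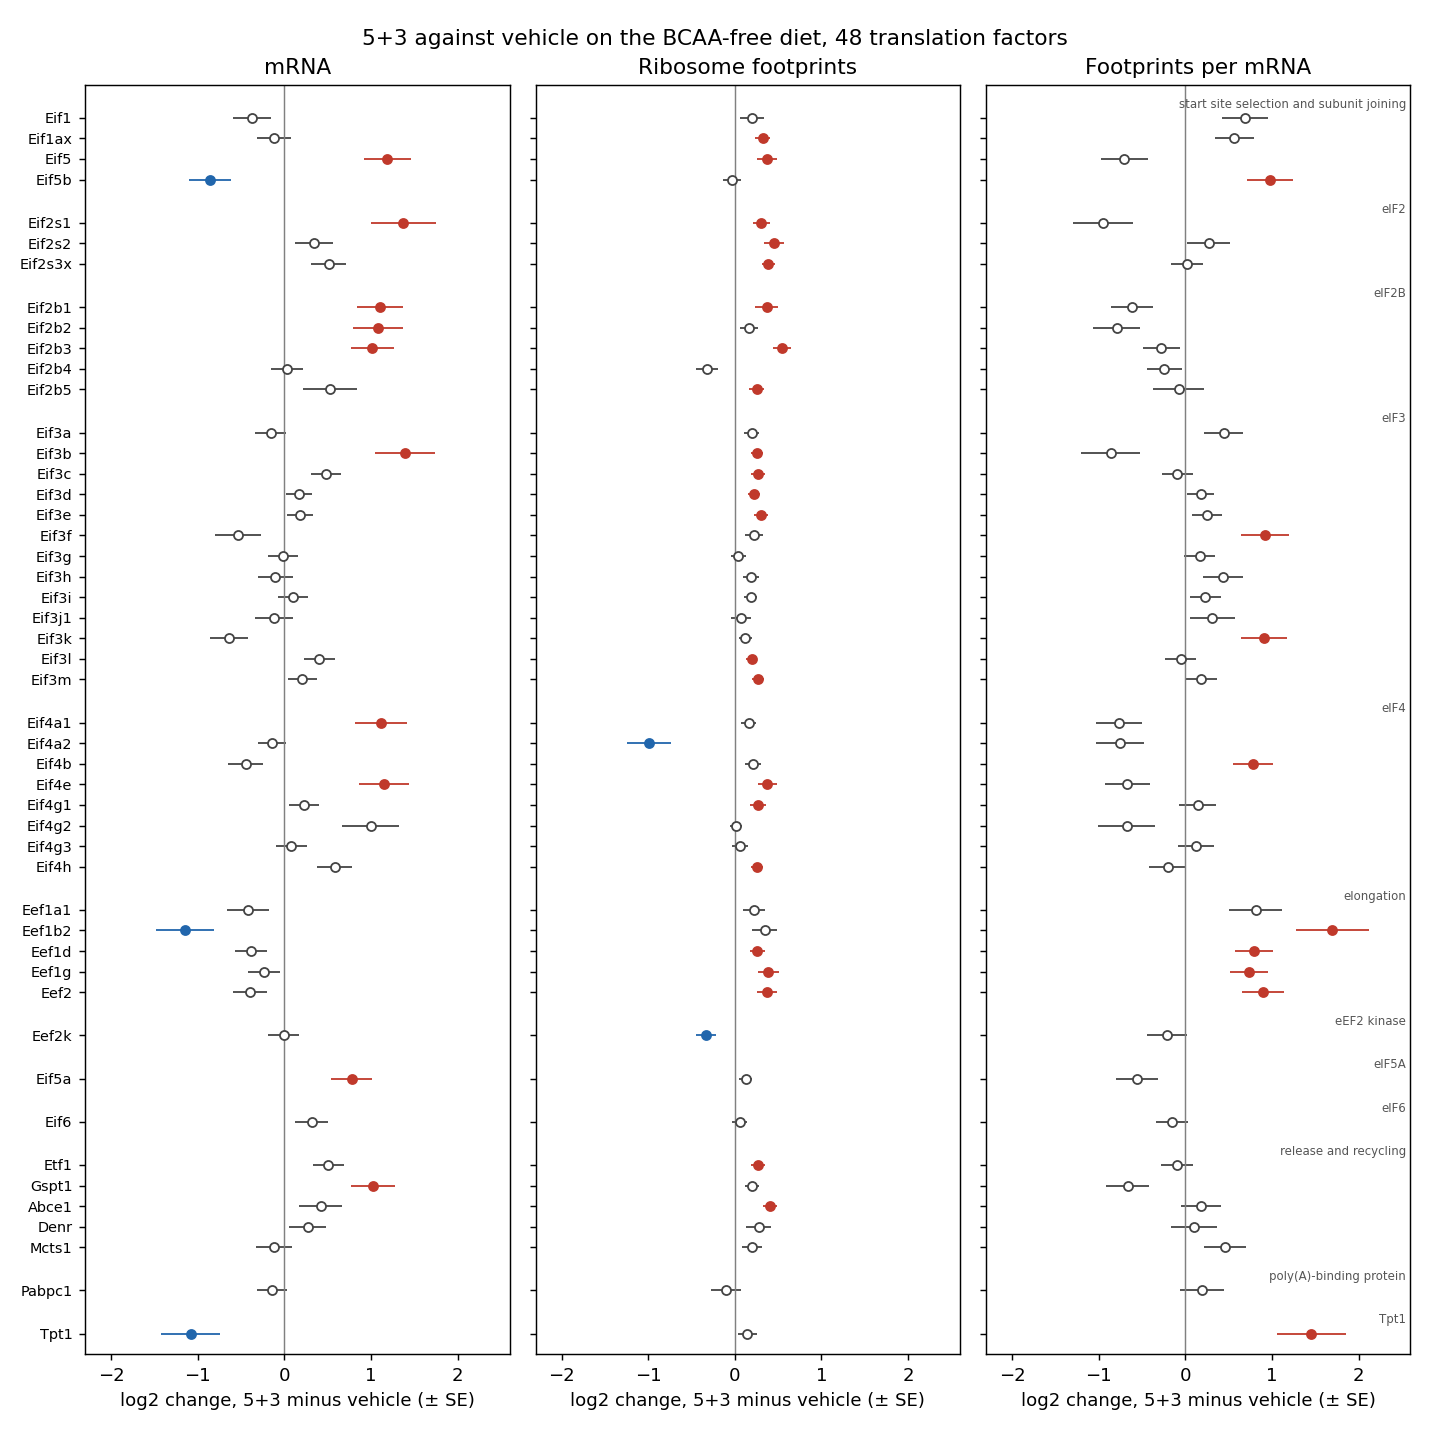
Log2 change ± SE of each of 48 translation factors, 5+3 minus vehicle on the BCAA-free diet (7 against 5 mice), in mRNA, in footprints and in footprints per mRNA, ordered by role. Filled points passed the test (red higher, blue lower). mRNA changes spread from -1.15 (Eef1b2) to 1.39 (Eif3b), footprint changes except Eif4a2 lie between -0.33 and 0.55, and all 5 elongation factors are positive per mRNA.

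Footprints per mRNA, the translational efficiency, was tested as a group effect that differed between footprint and mRNA libraries, over all 42 libraries with each mouse as a block. On the BCAA-free diet 9 members passed between 5+3 and vehicle, all higher. Of all 12097 genes 7.45% passed, 3.51% higher and 3.94% lower. Elongation factors held 4 of the 9 calls from 5 genes, and initiation factors the next 4 from 33. The median change was 0.81 for elongation factors, 0.12 for initiation factors and -0.11 for all genes tested, and 7 of the 11 known TOP members passed. Without the 4 mice no member passed, and 0% of all genes did. Eef1b2 was then at 1.45 (adjusted p = 0.331), Eef2 at 0.79 (adjusted p = 0.340) and Tpt1 at 1.13.

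Eef1b2 led, with log2 footprints per mRNA of -2.35 ± 0.42 in vehicle mice and -0.79 ± 0.85 with 5+3 (change 1.70 ± 0.42, adjusted p = 0.032, higher in 94.3% of mouse pairs). Eef2 went from -0.31 ± 0.23 to 0.46 ± 0.42 (0.90 ± 0.24, adjusted p = 0.038), Eef1d changed by 0.79 ± 0.22 (adjusted p = 0.040) and Eef1g by 0.74 ± 0.22 (adjusted p = 0.048). Eef1a1 was close behind at 0.81 ± 0.31, which did not pass (adjusted p = 0.090). Tpt1 rose by 1.46 ± 0.40 (adjusted p = 0.038). Its 6 named pseudogenes held more footprint counts than Tpt1 itself, a mean of 3157 per library against 1351, so its footprint level is uncertain. Initiation factors past the test were Eif5b (0.98 ± 0.26, adjusted p = 0.037), Eif3k (0.91 ± 0.26, adjusted p = 0.043), Eif4b (0.78 ± 0.23, adjusted p = 0.044) and Eif3f (0.92 ± 0.28, adjusted p = 0.046). Eif4b and Eif3f are on the TOP list, and Eif5b and Eif3k are not.

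Several factors whose mRNA rose had negative values per mRNA that did not pass: Eif2s1 -0.95 ± 0.35, Eif3b -0.86 ± 0.34, Eif4a1 -0.76 ± 0.27, Eif5 -0.70 ± 0.27, Eif4e -0.67 ± 0.26, Gspt1 -0.66 ± 0.25 and Eif5a -0.55 ± 0.25. Eif2s3x (0.02 ± 0.19), Eif2b5 (-0.08 ± 0.30), Eif3a (0.44 ± 0.22), Eif3e (0.25 ± 0.18), Eif4g1 (0.14 ± 0.21), Eef2k (-0.21 ± 0.23), Etf1 (-0.10 ± 0.18), Abce1 (0.18 ± 0.23) and Pabpc1 (0.19 ± 0.26) did not pass either. DESeq2 called 15 members, 10 higher and 5 lower, and edgeR without a filter on low counts 4 higher and 3 lower. No member was called without vehicle replicates 2, 3 or 5 or without 5+3 replicates 1, 2, 4 or 5, each left out alone, and 1 without vehicle replicate 1. Without 5+3 replicate 7 there were 15 calls, 11 higher and 4 lower. The 7.45% of all genes past the test with all mice does not apply to these other fits.

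**Figure D2:**
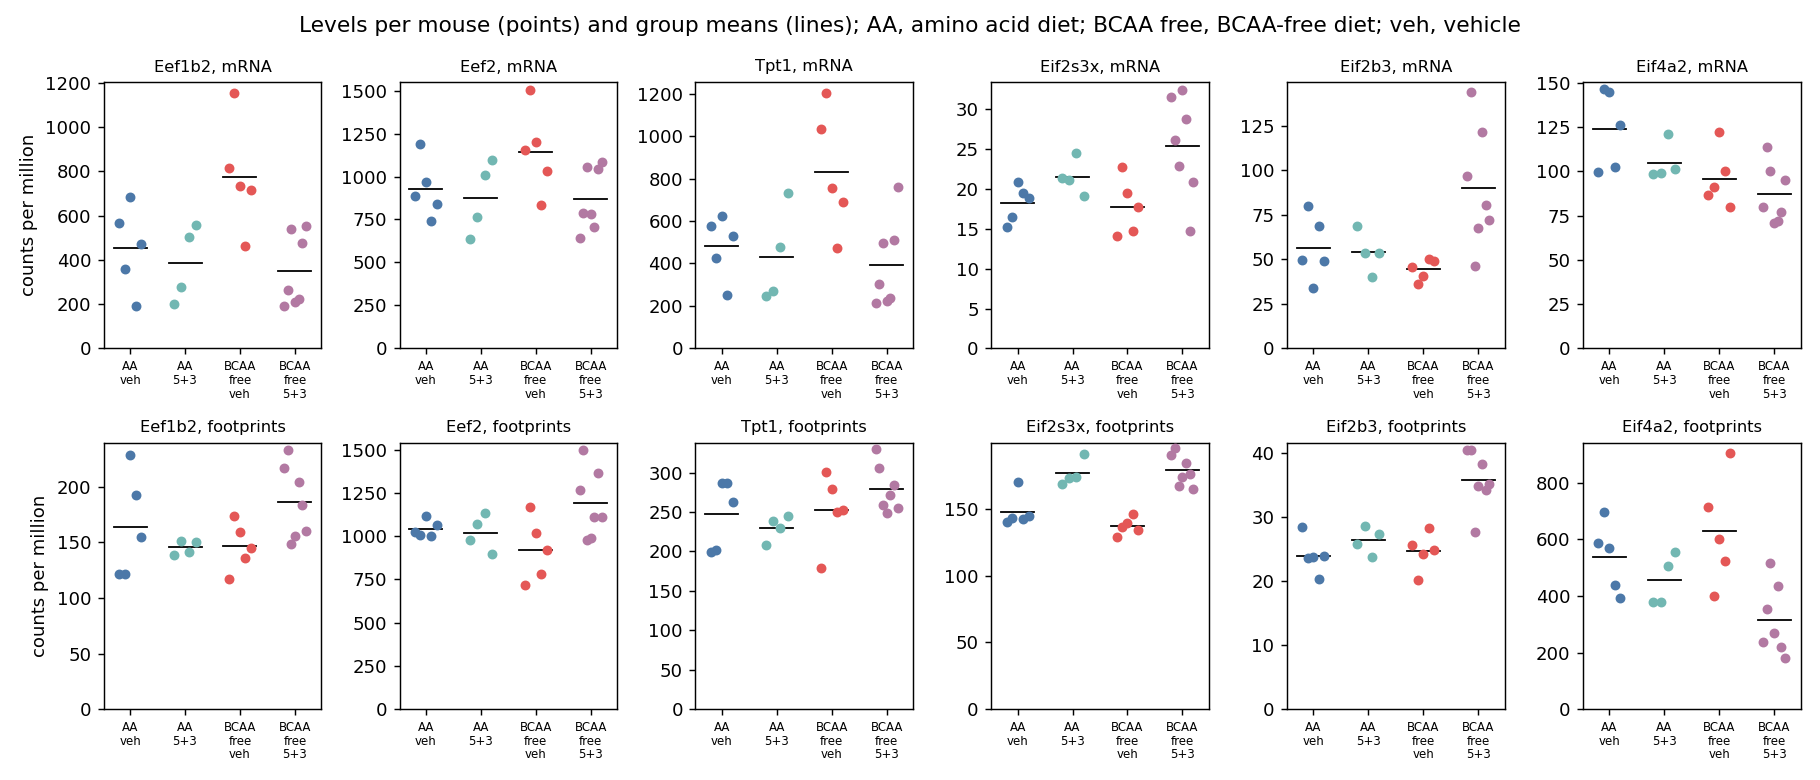
Levels of 6 members per mouse in CPM, mRNA above and footprints below, with points for mice and lines for group means. Eef1b2, Eef2 and Tpt1 mRNA is highest in the BCAA-free vehicle group, while Eif2s3x and Eif2b3 footprints with 5+3 on that diet lie above nearly all its vehicle mice, and Eif4a2 footprints lie lower.

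Set against each other within a mouse, elongation and initiation factors lay furthest apart, by group mean, in the mRNA of the BCAA-free vehicle mice. The mean log2 level of the 5 elongation factors minus that of the 33 initiation factors was 1.80 ± 0.41 in AA vehicle, 1.68 ± 0.43 in AA 5+3, 2.28 ± 0.28 in BCAA-free vehicle and 1.44 ± 0.46 in BCAA-free 5+3 mRNA. In footprints the same difference was 1.84 ± 0.10, 1.82 ± 0.09, 1.78 ± 0.19 and 1.92 ± 0.14, a narrower range, given in the same order. Per mRNA it was 0.04 ± 0.44, 0.14 ± 0.46, -0.51 ± 0.26 and 0.48 ± 0.53. The AA values per mRNA turned on single mice, at -0.15 in AA vehicle without replicate 4, and at -0.0023 and 0.31 in AA 5+3 without replicate 1 or replicate 4. Without Eef1a1 the per-mRNA values were -0.30, -0.22, -0.88 and 0.15, lower in every group and in the same order. The place of 0 on this scale depends on which genes are listed, so a sign alone has no meaning. These are descriptions with no test. By share of all counts, the 5 elongation factors took 0.488% ± 0.0954 of mRNA counts in BCAA-free vehicle and 0.353% ± 0.0766 in BCAA-free 5+3 mice, against 0.472% ± 0.115 and 0.572% ± 0.0823 of footprint counts.

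The 7 BCAA-free 5+3 mice did not form an even group. Their mRNA differences for replicates 1 to 7 were 0.977, 1.12, 1.89, 1.20, 1.02, 1.83 and 2.05, so that replicates 3, 6 and 7 lay closest to the vehicle range of 1.89 to 2.65 and the last of them inside it. Mitochondrially encoded transcripts made up 0.260%, 0.302%, 0.622%, 0.438%, 0.235%, 0.643% and 0.595% of mRNA counts in the same mice, highest in replicates 3, 6 and 7. In AA 5+3 mice the differences were 1.21, 1.44, 1.96 and 2.13 beside shares of 0.335%, 0.375%, 0.593% and 0.668%, in the same order. The order of the BCAA-free 5+3 mice matched only in part, and in the vehicle groups it differed. AA vehicle mice had differences of 1.98, 1.80, 2.20, 1.12 and 1.89 beside shares of 0.786%, 0.325%, 0.316%, 0.357% and 0.603%, so the highest difference went with the lowest share. BCAA-free vehicle mice had 2.42, 2.65, 2.27, 1.89 and 2.17 beside 0.513%, 0.498%, 0.620%, 0.388% and 0.337%. The part of this share in the result was not tested.

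**Figure D3:**
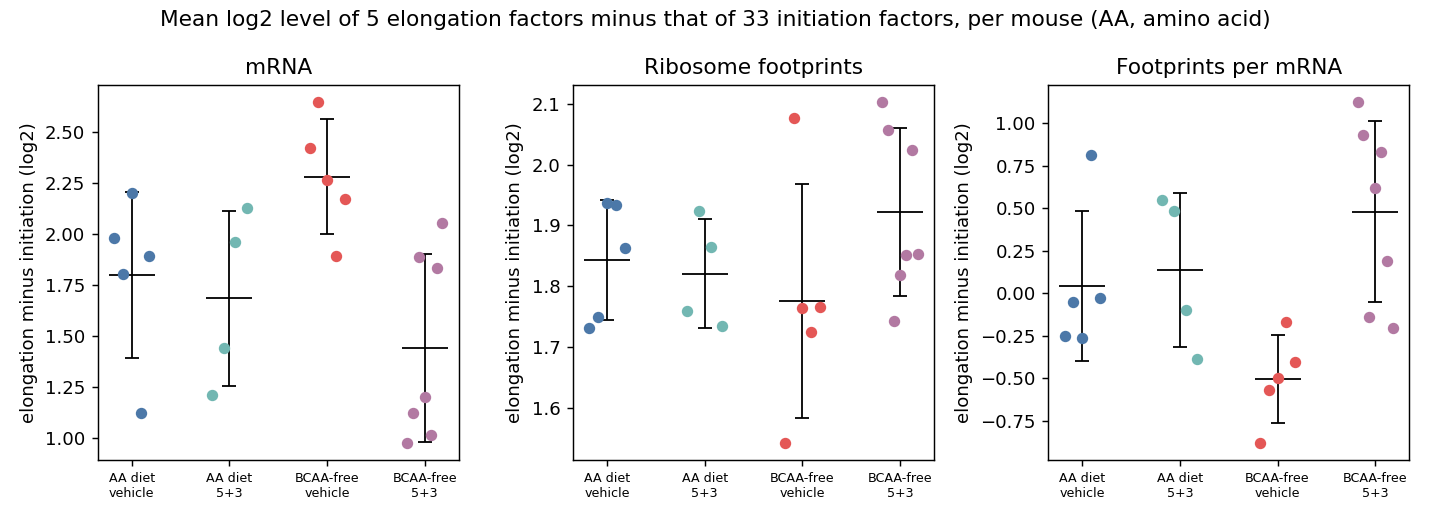
Mean log2(CPM + 0.5) of 5 elongation factors minus that of 33 initiation factors in each mouse, by group, for mRNA, footprints and footprints per mRNA, with points for mice and bars for group mean ± SD. By group mean the BCAA-free vehicle mice lie highest in mRNA (range 1.89 to 2.65) and lowest per mRNA (range -0.88 to -0.17). Both ranges overlap those of the other groups, and footprints differ little.

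On the AA diet, 5+3 left nearly all members below the threshold. No mRNA passed (0.0616% of all genes did), 0 of 48 had an unadjusted p under 0.05, and DESeq2 and limma called none. In a panel of 19 of the 48 members, chosen to span the roles, changes ranged from -0.26 (Eif4b) to 0.51 (Abce1). In footprints Gspt1 alone passed, with 160.2, 158, 177, 155 and 180.4 CPM with vehicle and 202, 189.8, 237 and 209 with 5+3. The groups did not overlap, and the log2 change was 0.34 ± 0.09 (adjusted p = 0.031), against 6.61% of all genes past the test. The call was lost without AA vehicle replicates 1, 2 or 4 and without AA 5+3 replicates 1 or 3, where adjusted p lay between 0.050 and 0.13, and DESeq2 called 5 members. Without AA vehicle replicates 1 and 2 together Gspt1 was at 0.29 (adjusted p = 0.083) and the member that passed was lower. With all mice, 15 members had an unadjusted p under 0.05 in footprints by edgeR, 14 of them higher with 5+3. The share of all genes at that unadjusted cutoff is not given here, and the 6.61% is at adjusted p. The panel ranged from -0.32 (Pabpc1) to 0.34 (Gspt1). Abce1 (0.24 ± 0.09), Eif2s3x (0.25 ± 0.08, adjusted p = 0.056) and Eif2b5 (0.30 ± 0.10, adjusted p = 0.070) did not pass. Per mRNA no member passed, 0 had an unadjusted p under 0.05, DESeq2 and limma called none, and 0% of all genes passed by edgeR, with the panel between -0.39 (Eif4e) and 0.21 (Eif4g1). The elongation medians were -0.08 in mRNA and -0.03 in footprints.

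**Figure D4:**
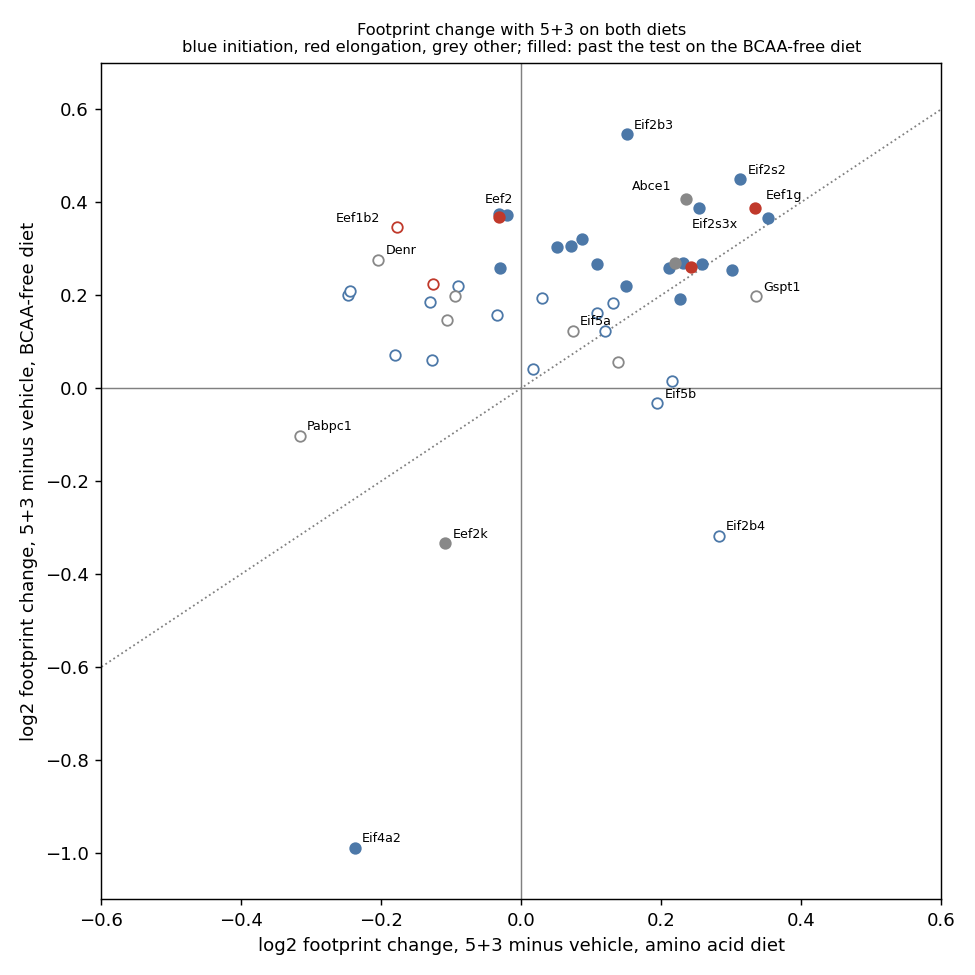
Log2 footprint change with 5+3 of 48 translation factors on the AA diet (x axis, 4 against 5 mice) and the BCAA-free diet (y axis, 7 against 5 mice), which share no mice; blue initiation, red elongation, grey other factors, filled where past the test on the BCAA-free diet, dotted line equal change. eIF2 subunits, Abce1 and Eef1g are positive on both diets, Eef2 and Eef1b2 lie near or below 0 on the AA diet, and Eif2b4 has opposite signs.

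Whether the response to 5+3 differed between diets was tested as an interaction, and no member passed in any readout. Of all genes 0.0758% passed in mRNA, 7.09% in footprints and 0.00827% per mRNA. By edgeR 9, 11 and 9 members had an unadjusted p under 0.05 in these readouts, DESeq2 called 1, 1 and 0 and limma 0, 1 and 0. The smallest adjusted p among members was 0.059, for the footprints of Eif4b (0.46 ± 0.15), followed by Eif2b4 (-0.60 ± 0.20, adjusted p = 0.060). Eef1b2 per mRNA had an interaction of 1.60 ± 0.64 (adjusted p = 0.35). Without AA vehicle replicates 1 and 2, the mice with the shallowest footprint libraries, 7 members passed in footprints, 6 higher and 1 lower, among them Eef1b2 (0.76, adjusted p = 0.013), Eif4b (0.55, adjusted p = 0.025) and Eif4e (0.56, adjusted p = 0.026). The 7.09% of all genes belongs to the fit with all mice and does not apply to this one. No member passed in any readout without the 4 mice that stood apart. Of all genes 0.0287% then passed in mRNA, 0.659% in footprints and 0% per mRNA. Leaving out AA vehicle replicate 2 or BCAA-free 5+3 replicate 3 alone gave 3 calls each, in fits to which the 7.09% does not apply either. All 11 known TOP members had a positive interaction in footprints, with a median of 0.31 against -0.02 over all genes tested, and a positive one per mRNA, with medians of 0.77 and -0.09. The larger number of calls on the BCAA-free diet with all mice is thus not shown to be a difference between the diets.

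Between the diets with vehicle, no member passed. In mRNA 0% of all genes passed, 11 members had an unadjusted p under 0.05 by edgeR, and DESeq2 and limma called none. All 11 known TOP members had positive mRNA changes on the BCAA-free diet, with a median of 0.37, against -0.06 over all genes tested. Of the 5 BCAA-free vehicle mice, 3 are among the 4 that stood apart, and erythroid markers made up 0.00210% of mRNA counts with the AA diet and 0.00954% with the BCAA-free diet. The part of either in the result was not tested. Again no member passed in any readout without the 4 mice, and 0 genes passed at all. Tpt1 was at 0.79 ± 0.37 and Eef1b2 at 0.77 ± 0.37 (both adjusted p = 0.44), and Eef1d, at 0.54 ± 0.20, did not overlap between groups without passing. The lowest panel value was -0.80 (Eif2s1). In footprints 2.04% of all genes passed and 4 members had an unadjusted p under 0.05, DESeq2 called 1 and limma none. Eif5a, at 552 ± 39.6 and 659 ± 31.4 CPM without overlap, came closest among those given in full (0.26 ± 0.08, adjusted p = 0.076). Per mRNA 0% of genes passed by edgeR, 7 members had an unadjusted p under 0.05, DESeq2 and limma called none, and Eef1b2 stood at -0.98 ± 0.45, with Eif5a highest of the panel at 0.46 ± 0.27.

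Under 5+3, members passed between the diets in footprints and in neither mRNA nor footprints per mRNA. In mRNA no member passed, against 1.24% of all genes, with 5 unadjusted p under 0.05 by edgeR and no call by DESeq2 or limma, and the panel ranged from -0.14 (Eef1b2) to 0.63 (Eif5a). In footprints 10 of 48 passed, 7 higher and 3 lower on the BCAA-free diet. That share is below the background, 28.3% of all genes, 12.5% higher and 15.8% lower. With protein-coding genes alone 14 were higher and 2 lower, a fit to which the 28.3% does not apply. Without the 4 mice there were again 10, 7 higher and 3 lower, beside 23.9% of all genes. Between the AA and the BCAA-free diet, footprint shares went from 0.126% to 0.0374% for mature neutrophil markers, from 0.0114% to 0.00176% for erythroid markers and from 0.925% to 0.675% for leukaemia markers. Their part in the result was not tested.

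Denr, which with Mcts1 recycles small subunits, had 22.96, 19.2, 21.5 and 23.5 CPM on the AA diet and 28.1 to 41.1 with a median of 32.0 on the BCAA-free diet, without overlap (log2 change 0.59 ± 0.16, adjusted p = 0.0063). Eif5a had 568, 564, 560.1 and 631 CPM against 669 to 773, also without overlap (0.31 ± 0.08, adjusted p = 0.0047). Eif4h rose by 0.32 ± 0.08 (adjusted p = 0.0032), Eif2b3 by 0.44 ± 0.11 (adjusted p = 0.0046) and Eif1ax, which helps scanning, by 0.35 ± 0.10 (adjusted p = 0.0072). Within eIF2B, Eif2b4 went the opposite way to Eif2b3, with 22.1, 20.9, 20.7 and 18.7 CPM on the AA diet and 10.1 to 18.3 on the BCAA-free diet (-0.55 ± 0.14, adjusted p = 0.0038). Eif5b (-0.39 ± 0.11, adjusted p = 0.0088) and Eef2k (-0.36 ± 0.12, adjusted p = 0.031) were also lower. No elongation factor passed, the nearest being Eef1b2 at 0.36 ± 0.16 (adjusted p = 0.091), and eIF2 subunits were between -0.03 and 0.02. Per mRNA no member passed, 0 had an unadjusted p under 0.05, DESeq2 and limma called none, and 0.00827% of all genes passed, with the panel between -0.32 (Eif4a1) and 0.62 (Eef1b2).

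Some regulators around these factors also passed the test. Those named have the smallest adjusted p, so the names say nothing about their lists as wholes. In mRNA, 2 of 16 regulators of eIF4F fell with 5+3 on the BCAA-free diet, against 8.56% of all genes past the test and 4.23% lower. They were the cap-binding repressors Eif4ebp2 (-1.06 ± 0.23, adjusted p = 0.012) and Eif4ebp3 (-1.84 ± 0.43, adjusted p = 0.016). Rising members of that list were Paip2b (1.19 ± 0.29, adjusted p = 0.019) and Eif4e2 (0.76 ± 0.23, adjusted p = 0.043), and the helicase Dhx29 rose as well (1.02 ± 0.26, adjusted p = 0.025). Of 9 genes for eIF2 kinases, phosphatases and related factors 1 was lower, the Gcn2 gene Eif2ak4 (-0.68 ± 0.19, adjusted p = 0.033). In footprints 20.6% of all genes passed, 8.76% higher and 11.9% lower. There the helicase Ddx3x (0.39 ± 0.08, adjusted p = 0.0025) and Eif2a (0.42 ± 0.10, adjusted p = 0.0041) rose. The paralog Eif1b (-0.48 ± 0.12, adjusted p = 0.0066) and the endoplasmic reticulum kinase Eif2ak3 (-0.59 ± 0.15, adjusted p = 0.0075) fell. Per mRNA, where 7.45% of all genes passed, Eif4ebp3 (1.87 ± 0.52, adjusted p = 0.039) and Eif4ebp2 (1.12 ± 0.31, adjusted p = 0.041) rose. The mitochondrial factors Gfm2 (0.92 ± 0.22, adjusted p = 0.030) and Mrrf (-1.004 ± 0.31, adjusted p = 0.0497) went opposite ways per mRNA. Without the 4 mice that stood apart, none of the listed regulators and mitochondrial factors passed with 5+3 on the BCAA-free diet in any readout, and over all genes the mRNA calls went from 1807 to 19. Eif4ebp3 mRNA was then at -1.41 (adjusted p = 0.24), Eif2ak4 mRNA at -0.47 (adjusted p = 0.37) and Ddx3x footprints at 0.37 (adjusted p = 0.098).

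Between the diets under 5+3, Eif2ak4 had the smallest adjusted p of these regulators in footprints, -0.95 ± 0.18 on the BCAA-free diet (adjusted p = 0.00048), and 3 of 8 tested genes of its list were lower and 1 higher. With 28.3% of all genes past the test, 15.8% lower and 12.5% higher, such counts in short lists do not set them apart. Eif1ad (0.53 ± 0.11, adjusted p = 0.00084) and Ddx3x (0.37 ± 0.09, adjusted p = 0.0034) were higher. Of 9 mitochondrial translation factors 4 were lower and 1 higher, against the same share of all genes, among them the elongation factor Tufm (-0.53 ± 0.11, adjusted p = 0.0011) and Gfm2 (-0.77 ± 0.17, adjusted p = 0.0012). Eif2ak4 was at -0.89 (adjusted p = 0.0025) and Tufm at -0.49 (adjusted p = 0.0061) without the 4 mice. With 5+3 on the AA diet 3 regulators had fewer footprints, while 6.61% of all genes passed in either direction. They were Dph6 (-0.53 ± 0.13, adjusted p = 0.014), Paip2 (-0.52 ± 0.14, adjusted p = 0.029) and Pdcd4, an inhibitor of eIF4A (-0.38 ± 0.11, adjusted p = 0.040). In footprints the interaction passed for 7.09% of all genes. Among the listed genes it passed for Ddx3x (0.47 ± 0.13, adjusted p = 0.026), Eif2ak3 (-0.83 ± 0.23, adjusted p = 0.032) and the mitochondrial release factor Mtrf1l (-1.39 ± 0.33, adjusted p = 0.014). No regulator passed the interaction without the 4 mice, when 0.659% of all genes passed it in footprints. On the AA diet Dph6 (adjusted p = 0.028) and Paip2 (adjusted p = 0.047) but not Pdcd4 then passed, beside 5.25% of all genes.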

How the data were processed

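Per the submitters' processing notes, the authors used cutadapt, Bowtie2, STAR, SAMtools and featureCounts with GRCm38 or mm10, and they deposited raw counts per Ensembl gene, in a table per readout. Symbols were matched for 55141 of 55487 identifiers. Groups came from sample titles. Genes passing filterByExpr (minimum count 10, minimum total 15) were scaled by TMM and tested with edgeR 4.0.16 (R 4.3.3) in a 4-group quasi-likelihood model per readout, and footprints per mRNA as an interaction over 42 libraries with the mouse as block (same-mouse libraries share a lysate). Levels are TMM-scaled CPM, ± SD, computed here from the deposited counts. Ratios use a pseudocount of 0.5. Gene lengths were not used, so levels are not compared between genes. DESeq2 1.42.0, limma 3.58.1, other scalings, filters and left-out mice were alternatives, and the scripts were tested on simulated data. Members and lists were chosen with earlier results of these data known. Named genes are a panel of 19, given in full for 5+3 on the BCAA-free diet and by range or in part elsewhere, up to 5 members per direction with the smallest adjusted p under 0.05, and up to 3 other pathway genes per direction. Any member named beyond that rule was picked with its values known. Each share of all genes is at adjusted p under 0.05 in its own edgeR fit. It is no background for counts at unadjusted p or from other fits. Replicate numbers did not pair mice across groups. The vehicle mice on the AA diet carry a letter B in their library labels that no source explains. If it marks a batch, it cannot be told apart from that group. The precision of footprint levels is limited by their depth, and p-values set differences between groups against the spread between mice.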

Additional observations from a re-analysis of the deposited data

Results flagged for a closer look

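Of 480 sets of values from groups of 4 to 7 mice, 20 (4.17%) held a mouse far from the others by Dixon's test, and chance alone gives about 1 in 20. In mRNA these were Eif3m in AA 5+3 replicate 4 (213 CPM), Eif4a2 in AA 5+3 replicate 3 (121 CPM), Eif4g1 in AA vehicle replicate 1 (154 CPM), Eif5a in AA 5+3 replicate 3 (2620.1 CPM) and Abce1 in AA vehicle replicate 4 (169 CPM). In footprints they were Eif5 (152 CPM) in BCAA-free 5+3 replicate 5, Eif5b (127 CPM) in BCAA-free 5+3 replicate 2, and Eif2s3x (169.9 CPM) in AA vehicle replicate 3. Eif2b4 reached 20.1 CPM in BCAA-free vehicle replicate 4. In AA 5+3 mice, Eif3b (301 CPM) and Eif3c (499.9 CPM) stood high in replicate 3 and Eif5a (631 CPM) in replicate 4.

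In log2 footprints per mRNA, Eif5 was at -1.32 in BCAA-free 5+3 replicate 7, and in BCAA-free vehicle replicate 1 Eif3e was at -0.60 and Eef1a1 at -0.26. In AA 5+3 replicate 4 Eif3m stood at -0.72 and Eif4h at -1.48. Abce1 stood at -0.45 in AA vehicle replicate 4 and at -0.32 in BCAA-free vehicle replicate 5. The elongation-minus-initiation difference per mRNA was 0.81 in AA vehicle replicate 4.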

How the results depend on the processing

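Counts of members past the test are compared with those reported. Shares of all genes given with the reported counts do not apply to these other fits. For 5+3 on the AA diet, footprint calls (1) became 2 with median-ratio scaling or with only the compared groups fitted, 0 without a filter and 5 with DESeq2. For the footprint interaction (0) they became 1 without a filter, with DESeq2 or with limma, 2 with protein-coding genes alone and 7 without the 2 mice with the shallowest footprint libraries. DESeq2 also gave 1 call for the mRNA interaction and 1 for footprints between diets with vehicle (both 0). For footprints between diets under 5+3 (10), protein-coding genes alone gave 16. For 5+3 on the BCAA-free diet, footprints per mRNA (9) became 15 with DESeq2, 1 with only the compared groups, 2 without the 2 shallowest mice and 0 without the 4 mice that stood apart. Without those 4, mRNA calls fell from 13 to 0 and footprint calls from 24 to 1. Of all genes 0.0779% passed in mRNA, 2.39% in footprints and 0% per mRNA in that fit. The cause was not tested. Those 4 mice were known from earlier results of these data, and adding the named copies was chosen after seeing the data, as was refitting the regulators without the 4 mice.

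Leaving out 1 mouse at a time gave, for 5+3 on the BCAA-free diet, 1 to 17 mRNA, 17 to 26 footprint and 0 to 15 per-mRNA calls. It gave 0 to 2 footprint calls for 5+3 on the AA diet, 7 to 13 between diets under 5+3 and 0 to 3 for the interaction. Same-numbered mice of different groups did not deviate together (27 pairs, median r = 0.010 in mRNA and -0.015 in footprints, 10 and 6 pairs over 0.1). The mRNA and footprint libraries of the same mouse, the block of the per-mRNA test, deviated together only weakly. Over 21 pairs r ran from -0.035 to 0.30 with a median of 0.081, and 10 pairs were over 0.1. A replicate block gave 17 mRNA and 15 footprint calls for 5+3 on the BCAA-free diet and 8 footprint calls between diets under 5+3. With no replicate block there were 8 per-mRNA calls.

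The elongation-minus-initiation difference, in the order AA vehicle, AA 5+3, BCAA-free vehicle, BCAA-free 5+3, moved to 2.24, 2.13, 2.61 and 2.00 in mRNA with Eif5a counted as an elongation factor. Without Eef1a1 it was 1.36 in AA vehicle and 1.88 in BCAA-free vehicle mRNA, 1.06, 1.08, 0.999 and 1.16 in footprints and -0.30, -0.22, -0.88 and 0.15 per mRNA. With Eif5a counted as an elongation factor the per-mRNA values were -0.33, -0.24, -0.71 and 0.023. Both choices lowered the per-mRNA value of every group and kept the order of the groups, while the sign of both AA values turned. No called member changed its sign. Low footprint counts limit Eif2b4, Eif2b1 and Denr most.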
